A study of Mus musculus with 12 samples.

Results

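Aminoacyl-tRNA synthetases and the enzymes that modify the wobble base of mitochondrial tRNAs were followed in tibialis anterior muscle, a fast muscle of the lower leg, of mice with and without the taurine transporter. The set held 38 of the 34821 gene names on the array, namely 20 cytosolic synthetases, 15 mitochondrial synthetases whose names end in 2, and Mto1, Gtpbp3 and Trmu. Each gene was represented by the probe that carries its name and had the highest mean signal over the 12 arrays, and 37 of the 38 passed the filter on dim probes. The probe of Nars2, the mitochondrial asparaginyl-tRNA synthetase, was not well above background on any array and was not tested.

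Total RNA was labelled with Cy3 and hybridised to Agilent SurePrint G3 arrays for mouse genes, 1 mouse per array and 3 mice per group. All mice were males on the C57BL6 background, and the groups were WT at 3 months (young WT), TauTKO at 3 months (young TauTKO), WT at 18 months (old WT) and TauTKO at 18 months (old TauTKO). TauTKO mice lack a functional gene for the transporter in the whole body and were bred from heterozygous parents together with their WT littermates. The p-values below therefore measure the spread between mice.

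Synthetases couple each amino acid to its tRNA, one set in the cytosol and another, also encoded in the nucleus, in mitochondria. In mitochondria, Mto1 and Gtpbp3 together place a taurinomethyl group on the uridine at the wobble position of a few tRNAs, those for leucine (UUR codons), tryptophan, lysine, glutamine and glutamate, and Trmu adds sulfur to the same base in the last 3 of them. Taurine is the substrate of that modification, and loss of the modified base in mitochondrial tRNAs is known from mitochondrial myopathies. When amino acids are short or mitochondrial translation is disturbed, the transcription factor ATF4 raises genes of amino acid synthesis and transport, and many cytosolic synthetase genes are among its known targets.

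Signals are given as log2 of the background-corrected intensity minus the 75th percentile of the array, so that 0 is the signal at that percentile, and differences are log2 fold changes from 1 limma fit over all 12 arrays. A gene passed when its Benjamini-Hochberg adjusted p over 38973 probes was under 0.05. The targeted gene Slc6a6, which encodes the transporter, went against the label. Its signal was 2.48, 2.84 and 2.48 in old WT and 3.72, 3.47 and 3.18 in the old arrays labelled TauTKO, which is 0.85 higher (SE 0.192, limma adjusted p = 0.0297), and it was also higher in young TauTKO (0.79, limma adjusted p = 0.0987). The sources used here do not say which exons the knockout removes, so it is unknown whether this probe lies in the deleted part, and every direction below rests on the labels of the arrays. The 75th percentile itself ranged from 429.9 to 502.6 (young WT), from 507.8 to 532.9 (young TauTKO), from 429.8 to 474 (old WT) and from 478.7 to 562.1 (old TauTKO), so that the arrays labelled TauTKO were brighter at both ages. All 10 markers of fast fibres were well above background on all 12 arrays.

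The members moved little. In old mice 1 of the 37 passed, Fars2, which was lower in TauTKO, where 6.1% of all probes passed and 2.52% did so as lower. Between the young groups 0 members passed, against 0.836% of all probes, and 5 had an unadjusted limma p under 0.05, against 12.8% of all probes. In the contrast of TauTKO against WT averaged over both ages, 4 members passed, Fars2, Ears2, Rars2 and Tars2, against 10.9% of all probes, and each of the 4 was lower, where 5.26% of all probes passed as lower. No member reached the fold threshold of 1.8 in any comparison, a threshold that 2.08% of all probes passed together with the adjusted p in old mice. A share of 4 in 37 is about that of the whole array, and all 4 lay in the mitochondrial list, at 28.6% of its 14 measured genes.

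**Figure D1:**
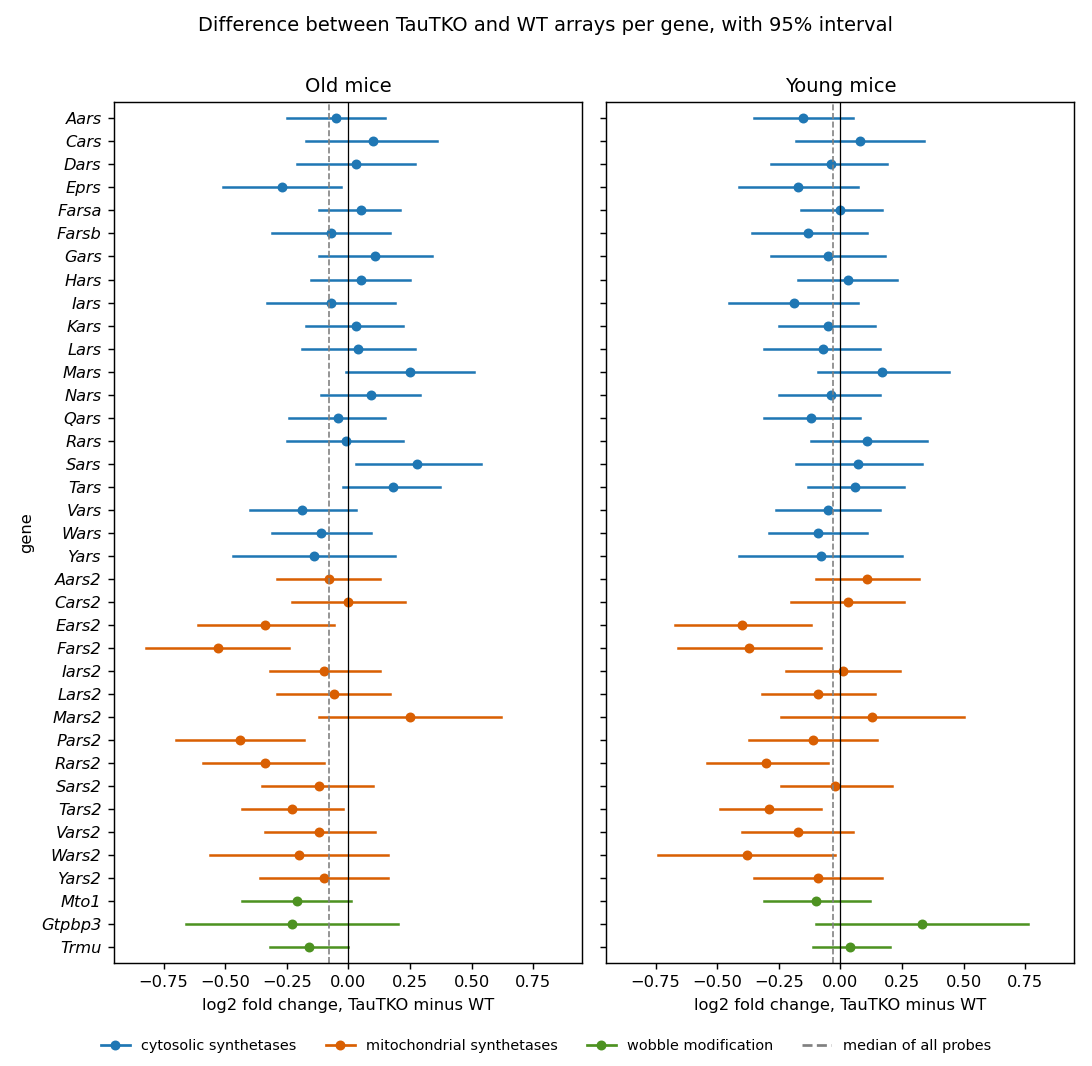
Log2 fold change of TauTKO against WT (x axis) for each of the 37 measured genes (y axis) in old and young mice, with 95% intervals from limma; colours mark the 3 lists and the dashed line is the median of all probes (-0.08 in the left panel, -0.03 in the right one). The cytosolic genes lie between -0.27 and 0.28 in old mice, whereas Fars2, Pars2, Ears2 and Rars2 lie at -0.34 or lower.

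The scaling between arrays bears on all of these signs. The median of all probes in old mice was -0.08 as scaled here, 0.03 when arrays were scaled to their median, -0.02 after quantile normalization, -0.10 after normexp background correction and 0.13 without scaling. Among the probes that passed over both ages, 48.2% were lower as scaled here, 27.7% with median scaling, 41.5% with quantile normalization, 58% with normexp and 9.04% without scaling. For that reason the 2 kinds of synthetase were also set against each other within each array, where a shift of the whole array cancels.

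The median of the mitochondrial synthetases lay below that of the cytosolic ones at both ages. In old mice the median log2 fold change was -0.12 over 14 mitochondrial genes and 0.03 over 20 cytosolic ones, beside -0.08 over all probes. In young mice it was -0.10 and -0.05, beside -0.03. Low medians were not particular to mitochondrial genes. The median of 12 genes that modify the wobble uridine in the cytosol was -0.12 in old and -0.13 in young mice. That of 13 cytosolic elongation and initiation factors was -0.1 and -0.12. In old mice 12 of the 14 mitochondrial genes lay below 0 and 9 of the 20 cytosolic ones, beside 60.5% of all probes, and in young mice 10 of 14 and 13 of 20, beside 55.4% of all probes. The mean of the mitochondrial minus the mean of the cytosolic genes, set to 0 on average in WT of the same age, was 0.04, -0.03 and 0.00 in old WT and -0.20, -0.17 and -0.18 in old TauTKO. In young mice it was 0.06, 0.00 and -0.06 in WT and -0.06, -0.12 and -0.12 in TauTKO. The old groups were thus well apart, while in young mice the highest TauTKO array stood beside the lowest WT array. The difference between the medians was between -0.18 and -0.12 in old mice over 30 settings, and between -0.12 and -0.04 in young mice. These settings include each array left out in turn. Many of them could not move this difference, such as another test, a scaling of whole arrays or leaving out an array of the other age. The narrow ranges are thus in part built in. The absolute sign was less stable, since the mitochondrial median in old mice was -0.02 with median scaling and 0.08 without scaling. No p is given for these means, because the genes were grouped with results of these arrays known.

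**Figure D2:**
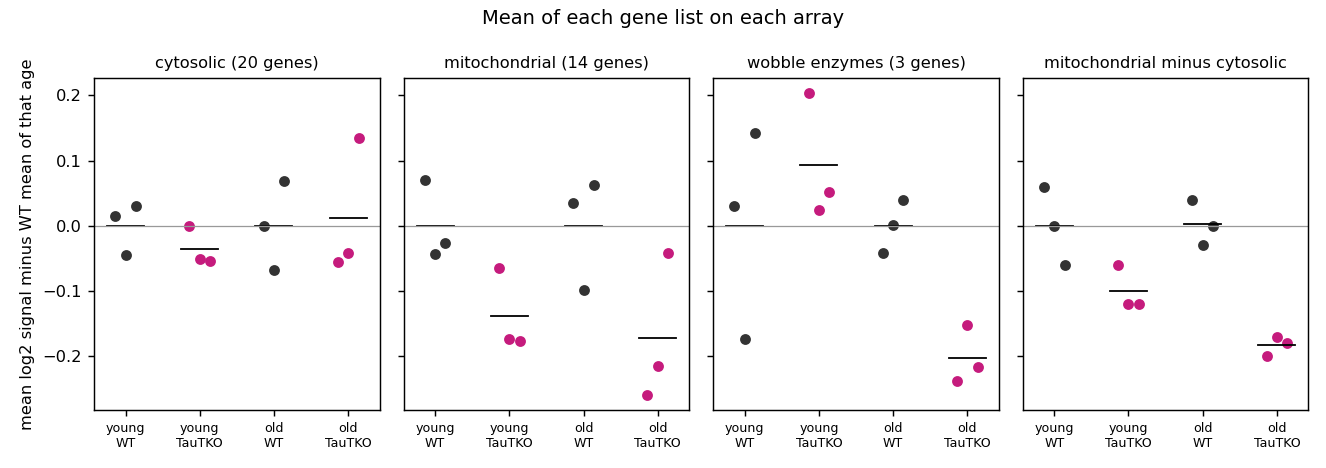
Mean log2 signal of the 20 cytosolic synthetases, the 14 mitochondrial synthetases, the 3 wobble enzymes, and the mitochondrial minus the cytosolic mean, each minus the WT mean of that age (y axis), for the 3 arrays of each group (points; bars are means). In the last panel the old TauTKO arrays lie between -0.20 and -0.17 and the old WT arrays between -0.03 and 0.04.

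Fars2, the mitochondrial phenylalanyl-tRNA synthetase, had the largest difference of all members between genotypes in old mice and over both ages, though not in young mice. Its probe (mm9 chromosome 13, 36629402 to 36629461) read 4.07, 3.75 and 4.03 in old WT and 3.28, 3.46 and 3.52 in old TauTKO. In young mice it read 4.15, 3.95 and 4.01 in WT and 3.90, 3.55 and 3.55 in TauTKO. Every TauTKO array was below every WT array of its age. Old TauTKO differed from old WT by -0.53 (SE 0.13, 95% interval -0.82 to -0.24, limma adjusted p = 0.0426), a ratio of 0.694, while in the young groups it was -0.37 (limma adjusted p = 0.242). Averaged over both ages it was -0.45 (limma adjusted p = 0.0129), and it passed there with each of the 12 arrays left out in turn (adjusted p between 0.00837 and 0.0374). The call in old mice alone was less firm. It held without young TauTKO replicate 1 (adjusted p = 0.0303) or old WT replicate 2 (0.0309) and was lost when any one of the other 10 arrays was left out, with an adjusted p up to 0.145.

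Ears2, Rars2 and Tars2 charge mitochondrial tRNAs with glutamate, arginine and threonine. Ears2 (mm9 chromosome 7, 129182565 to 129182624) read 0.42, 0.35 and 0.37 in young WT, -0.09, 0.09 and -0.04 in young TauTKO, 0.37, 0.21 and 0.56 in old WT, and -0.10, -0.06 and 0.28 in old TauTKO. The young groups did not overlap, and in old mice TauTKO replicate 3 lay above WT replicate 2. Rars2 (mm9 chromosome 4, 34607264 to 34607323) read 2.00, 1.84 and 2.15 in young WT, 1.72, 1.62 and 1.75 in young TauTKO, 2.17, 2.00 and 2.27 in old WT, and 1.94, 1.72 and 1.75 in old TauTKO, with no overlap at either age. Tars2 (mm9 chromosome 3, 95543899 to 95543958) read 3.59, 3.58 and 3.57 in young WT, 3.33, 3.30 and 3.24 in young TauTKO, 3.49, 3.23 and 3.57 in old WT, and 3.22, 3.23 and 3.16 in old TauTKO, so that old WT replicate 2 stood at the level of the old TauTKO arrays.

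Averaged over both ages, the log2 fold change was -0.37 for Ears2 (SE 0.0868, limma adjusted p = 0.0244), -0.32 for Rars2 (SE 0.0777, limma adjusted p = 0.0266) and -0.26 for Tars2 (SE 0.066, limma adjusted p = 0.0345). At a single age none of the 3 passed. With the row in which an array lay on the slide as a block, Fars2 still passed (adjusted p = 0.034) and Ears2 (0.0578), Rars2 (0.0652) and Tars2 (0.0802) did not. At both ages row 1 held 2 TauTKO arrays and 1 WT array, and row 2 held 1 TauTKO array and 2 WT arrays. Row and genotype were thus not balanced. Within the 4 combinations of age and row, the difference was between -0.53 and -0.38 for Fars2 and between -0.42 and -0.18 for Ears2. It was between -0.47 and -0.17 for Rars2 and between -0.37 and 0.00 for Tars2. Ears2 lost its call without young WT replicate 1 or 3, young TauTKO replicate 1 or 3, or old WT replicate 1 or 3 (adjusted p up to 0.0594). Rars2 lost it without young WT replicate 1 or 3, young TauTKO replicate 2, old WT replicate 1 or 3, or old TauTKO replicate 2 or 3 (up to 0.0693). Tars2 passed without old WT replicate 2 (0.00911) and was lost when any one of the other 11 arrays was left out (up to 0.0878).

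**Figure D3:**
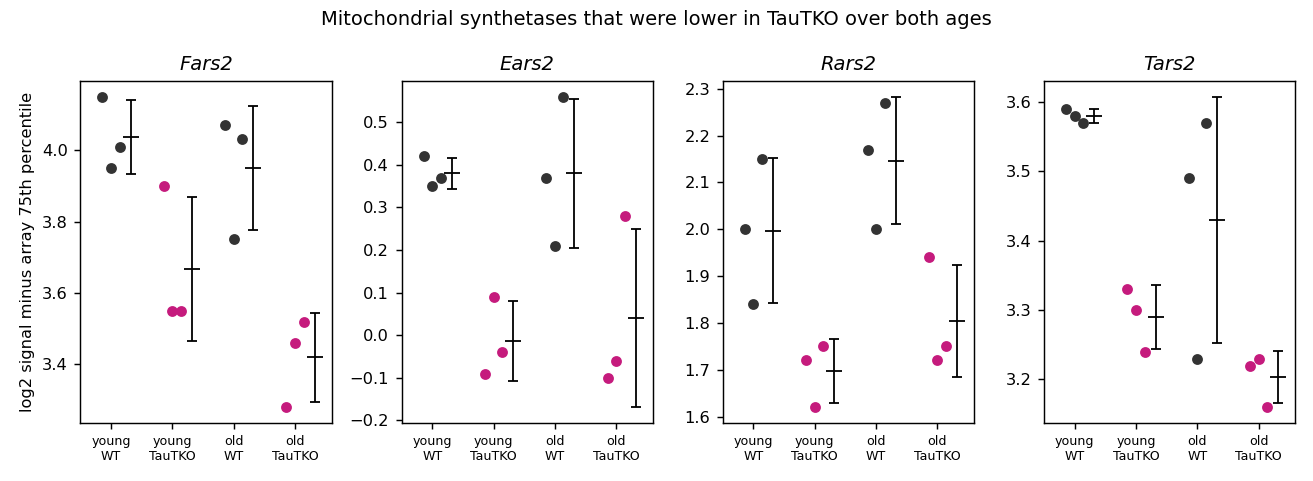
Log2 signal minus the array's 75th percentile (y axis, a separate range per gene) of Fars2, Ears2, Rars2 and Tars2 on the 3 arrays of each group (points), with mean and SD beside them. Fars2 lies between 3.28 and 3.52 in old TauTKO and between 3.75 and 4.07 in old WT, while 1 old WT array of Tars2 lies at the TauTKO level of 3.23.

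A second probe of Tars2, dimmer and at another position (mm9 chromosome 3, 95549701 to 95549760), gave larger differences than the first. It read 1.41, 1.11 and 1.44 in old WT and 0.78, 0.75 and 1.02 in old TauTKO, with no overlap, and passed in old mice (-0.47, limma adjusted p = 0.0335) and over both ages (-0.40, limma adjusted p = 0.0106). With the unrounded values, the groups of Fars2, Rars2 and Tars2 were apart and lower in TauTKO at both ages, for Tars2 in old mice by less than the digits printed above, which holds for 3 of 37 members and for 5.45% of all probes. In old mice 6 members were apart and lower (15.6% of all probes) and in young mice 9 (12.5% of all probes). Among the 14 mitochondrial genes these were 4 in old and 5 in young mice.

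The other mitochondrial synthetases did not pass. Pars2, the prolyl enzyme, came nearest in old mice, where it read 0.52, 0.50 and 0.39 in WT and 0.03, -0.08 and 0.14 in TauTKO without overlap and with a difference of -0.44 (limma adjusted p = 0.0546). In young mice its groups overlapped (-0.11). Wars2, the tryptophanyl enzyme, stood at -0.20 (old) and -0.38 (young), and Vars2, the valyl enzyme, at -0.12 and -0.17. The enzymes for alanine (Aars2, -0.08 and 0.11), cysteine (Cars2, 0.00 and 0.03), isoleucine (Iars2, -0.10 and 0.01), leucine (Lars2, -0.06 and -0.09), serine (Sars2, -0.12 and -0.02) and tyrosine (Yars2, -0.10 and -0.09) lay nearer to 0. A second, dimmer probe of Iars2, added after its values were seen, gave 0.03 in old mice and 0.21 in young mice (limma adjusted p = 0.257). On it every young TauTKO array lay above every young WT array. On the brightest probes Mars2, the methionyl enzyme, had the highest values of the list at both ages (0.25 and 0.13, limma adjusted p = 0.398 and 0.836). In old mice the 95% interval of all 14 stayed within 1.8-fold and that of 9 within 1.5-fold.

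The promoters of the 4 mitochondrial synthetases that were lower are shown because each of these genes passed as lower over both ages. Each is a RefSeq sequence of GRCm38.p6, from 120 bases before the annotated start to 50 bases after it, read 5′ to 3′ on the strand of the gene. Capitals mark matches to the letters GCATGCGC, the core of the site of NRF1, a regulator of nuclear genes for mitochondria, and CCGGAAG, the core of ETS family sites.
Fars2, chr13:36117523-36117692, plus strand: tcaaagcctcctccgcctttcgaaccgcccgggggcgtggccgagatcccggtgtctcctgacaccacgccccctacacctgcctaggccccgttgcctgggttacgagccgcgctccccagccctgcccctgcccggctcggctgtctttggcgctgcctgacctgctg
Ears2, chr7:122067037-122067206, minus strand: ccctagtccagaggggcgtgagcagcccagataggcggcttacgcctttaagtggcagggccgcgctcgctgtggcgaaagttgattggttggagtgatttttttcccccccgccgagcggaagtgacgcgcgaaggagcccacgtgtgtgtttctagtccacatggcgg
Rars2, chr4:34614837-34615006, plus strand: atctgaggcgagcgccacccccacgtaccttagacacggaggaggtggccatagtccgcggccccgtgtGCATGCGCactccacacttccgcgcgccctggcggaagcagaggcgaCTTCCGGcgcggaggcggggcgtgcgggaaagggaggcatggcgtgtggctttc
Tars2, chr3:95754928-95755097, minus strand: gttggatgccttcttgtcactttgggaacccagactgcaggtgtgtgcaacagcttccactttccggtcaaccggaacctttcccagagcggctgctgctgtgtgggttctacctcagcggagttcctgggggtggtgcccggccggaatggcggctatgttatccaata
Both motifs were searched on both strands of the whole 300-base promoter, and the 2 matches of Rars2 do not overlap. The NRF1 letters occurred in 3 of 14 promoters of mitochondrial synthetases (Rars2, Vars2 and Wars2), 0 of 12 of cytosolic ones and 2.71% of the 32851 promoters in the table. The ETS letters occurred in 4 of 14, 4 of 12 and 8.86%. The letters CAAGGTCA, a motif of the ERR nuclear receptors, occurred in 0 of the 29 promoters of members and in 1.56% of all. Of the 4 genes that were lower, Rars2 held matches and Fars2, Ears2 and Tars2 held none of these letters in this window.

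None of the 20 cytosolic synthetases passed in any comparison. In old mice 2 had an unadjusted limma p under 0.05 (Eprs and Sars), beside 8889 of the 38973 probes tested. In young mice 0 did, beside 12.8% of all probes. Their 95% intervals all stayed within 1.5-fold in old mice, in young mice and over both ages, with the outermost bounds at -0.51 and 0.54 in old mice. Of the 8 whose products sit in the multisynthetase complex, a large cytosolic assembly, Eprs, which charges glutamate and proline, had the lowest log2 fold change in old mice (-0.27, and -0.17 in young mice). It read 3.22, 3.00 and 3.38 in old WT and 2.80, 3.05 and 2.95 in old TauTKO, with overlap (limma adjusted p = 0.176). The other members of the complex were Dars (aspartate, 0.03 and -0.04), Iars (isoleucine, -0.07 and -0.19), Kars (lysine, 0.03 and -0.05), Lars (leucine, 0.04 and -0.07), Mars (methionine, 0.25 and 0.17), Qars (glutamine, -0.04 and -0.12) and Rars (arginine, -0.01 and 0.11). The scaffold proteins of the complex, Aimp1, Aimp2 and Eef1e1, differed by -0.11, 0.24 and 0.12 in old mice, and 0 of the 3 passed.

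Among the other cytosolic synthetases, Sars (serine) was highest in old mice, reading 4.27, 4.32 and 4.42 in WT and 4.43, 4.53 and 4.90 in TauTKO, where the groups did not overlap (0.28, limma adjusted p = 0.173). Mars read 2.60, 2.53 and 2.67 in old WT and 2.62, 2.82 and 3.12 in old TauTKO, which overlapped. Without scaling between arrays these 2 passed over both ages as higher in TauTKO and no member passed as lower. Tars (threonine) differed by 0.18 and 0.06, Gars (glycine), whose gene also encodes the mitochondrial enzyme as that of Kars does, by 0.11 and -0.05, and Yars (tyrosine) by -0.14 and -0.08 in old and young mice. The remaining values in old mice were -0.05 for Aars (alanine), 0.10 for Cars (cysteine), 0.05 for Farsa and -0.07 for Farsb, the 2 subunits for phenylalanine, 0.05 for Hars (histidine), 0.09 for Nars (asparagine), -0.19 for Vars (valine) and -0.11 for Wars (tryptophan). On the probes used here Farsa and Farsb, the cytosolic counterparts of Fars2, thus lay within 0.10 of 0 in old mice. The 2 dimmer of the 3 Farsa probes gave -0.16 (limma adjusted p = 0.283) and -0.35 (limma adjusted p = 0.248). On both of them old TauTKO lay below old WT without overlap.

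The cytosolic synthetases differed less between the old groups than other genes of the amino acid response in the same arrays. As scaled here, the median in old mice was 0.03 for these synthetases and 0.4 for the response list. The cytosolic median depended on the scaling, at 0.13 with median scaling and 0.23 without scaling. Of the 21 measured genes of that list, 5 passed in old mice, all higher in TauTKO and all past 1.8-fold, and 2 in young mice, beside shares of all probes given above. Psat1, an enzyme of serine synthesis, read -2.47, -1.80 and -1.84 in old WT and 1.20, -0.13 and 1.02 in old TauTKO (2.73, limma adjusted p = 0.0017). Mthfd2, of mitochondrial folate metabolism, rose by 2.57 (limma adjusted p = 0.00278) and Asns, asparagine synthetase, by 1.90 (limma adjusted p = 0.00338). Nupr1, a stress-induced nuclear protein, rose by 1.28 in the old groups (limma adjusted p = 0.000282) and by 0.46 in the young ones (limma adjusted p = 0.0354). Slc38a2, an amino acid transporter that the rule for named genes did not reach and that was chosen after its values were seen, rose by 0.98 in old TauTKO (limma adjusted p = 0.00575) and passed as higher in young TauTKO too (limma adjusted p = 0.015). Atf4 itself did not pass, at 0.06 in old TauTKO against WT and -0.11 in the young groups. The list as a whole was mixed, since 6 of its 21 genes lay below 0 in old mice and Shmt2 and Cth were lower over both ages (-0.25 and -0.69, limma adjusted p = 0.0304 and 0.0197).

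The promoters of 5 cytosolic synthetases, shown here with that of Asns for comparison, hold the letters TGATGNAA, the composite site bound by ATF4 with a C/EBP partner, which capitals mark on either strand. The windows are cut as above.
Aars, chr8:111033722-111033891, plus strand: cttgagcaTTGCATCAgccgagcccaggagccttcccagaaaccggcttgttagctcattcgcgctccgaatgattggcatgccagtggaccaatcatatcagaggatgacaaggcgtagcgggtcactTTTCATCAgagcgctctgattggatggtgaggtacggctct
Gars, chr6:55037881-55038050, plus strand: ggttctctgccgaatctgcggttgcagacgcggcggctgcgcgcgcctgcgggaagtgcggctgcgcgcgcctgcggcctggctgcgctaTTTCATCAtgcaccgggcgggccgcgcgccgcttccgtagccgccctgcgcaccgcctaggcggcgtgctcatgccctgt
Iars, chr13:49682010-49682179, plus strand: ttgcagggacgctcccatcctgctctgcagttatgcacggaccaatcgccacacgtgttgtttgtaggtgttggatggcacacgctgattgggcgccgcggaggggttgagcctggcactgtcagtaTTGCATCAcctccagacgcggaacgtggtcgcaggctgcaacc
Tars, chr15:11399609-11399778, minus strand: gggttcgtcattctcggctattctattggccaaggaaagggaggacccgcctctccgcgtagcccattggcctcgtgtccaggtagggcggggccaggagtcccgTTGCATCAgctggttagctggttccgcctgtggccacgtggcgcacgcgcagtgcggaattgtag
Yars, chr4:129189783-129189952, plus strand: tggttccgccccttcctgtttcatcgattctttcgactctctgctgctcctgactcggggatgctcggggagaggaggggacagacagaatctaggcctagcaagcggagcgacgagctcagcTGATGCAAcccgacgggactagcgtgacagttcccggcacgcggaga
Asns, chr6:7693160-7693329, minus strand: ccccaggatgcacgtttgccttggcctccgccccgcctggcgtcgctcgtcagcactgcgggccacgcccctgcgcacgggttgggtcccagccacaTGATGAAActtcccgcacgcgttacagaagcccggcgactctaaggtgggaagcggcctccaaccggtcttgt
The letters occurred in 5 of 12 promoters of cytosolic synthetases, in 0 of 14 of mitochondrial ones, in 0 of 3 of the wobble enzymes, in 6 of 20 of the amino acid response genes and in 3.97% of all promoters, and they overlap neither of the other motifs in these windows. The 5 cytosolic genes with a match had a median log2 fold change of -0.05 in old mice, between -0.14 and 0.18, and the 7 without one had 0.03, between -0.27 and 0.28. The 5 measured amino acid response genes with a match had a median of 1.28, between -0.14 for Chac1 and 1.90 for Asns, and the 14 without one had 0.27 and include Psat1 and Mthfd2. Of these genes with a match, 2 of the 5 response genes and 0 of the 5 synthetases passed as higher in old mice. The remaining response gene with a match, Slc7a11, did not pass the filter on dim probes. Cars, Hars, Lars, Mars, Nars, Rars, Vars, Wars and Pars2 had no promoter in the table.

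**Figure D4:**
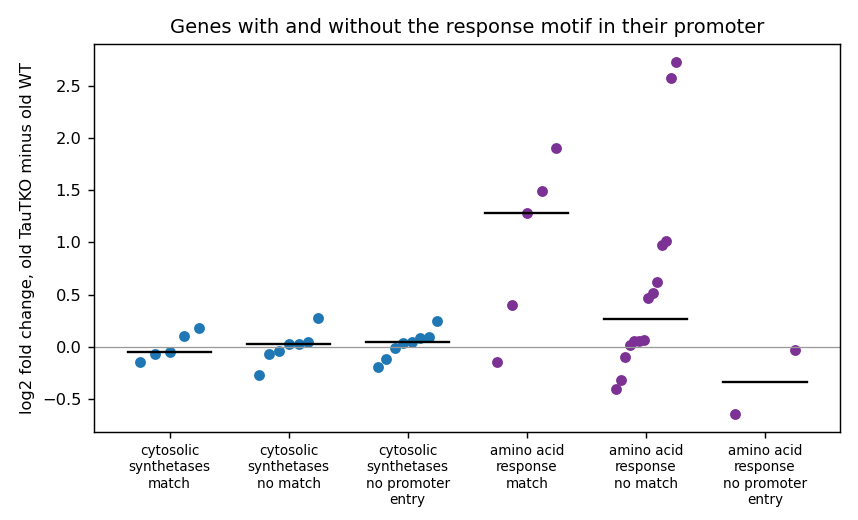
Log2 fold change of old TauTKO against old WT (y axis) for cytosolic synthetases and amino acid response genes, split by whether the promoter holds TGATGNAA on either strand, holds none, or is not in the table; points are genes and bars are medians. Cytosolic genes stay between -0.27 and 0.28 in every class, and response genes with a match range from -0.14 to 1.90.

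None of the enzymes of the wobble base passed between genotypes. Mto1 (mm9 chromosome 9, 78312756 to 78318443) read 0.93, 0.72 and 0.86 in old WT and 0.48, 0.66 and 0.72 in old TauTKO. Trmu (mm9 chromosome 15, 85727491 to 85727550) read 0.39, 0.33 and 0.42 in old WT and 0.24, 0.18 and 0.25 in old TauTKO. Gtpbp3 (mm9 chromosome 8, 74017217 to 74017276) read -1.83, -1.42 and -1.54 in old WT and -1.81, -1.67 and -2.00 in old TauTKO. The groups were apart for Trmu, touched for Mto1 and overlapped for Gtpbp3. The log2 fold changes in old mice were -0.21 for Mto1 (95% interval -0.43 to 0.01, limma adjusted p = 0.23), -0.16 for Trmu (-0.32 to 0.00, limma adjusted p = 0.212) and -0.23 for Gtpbp3 (-0.66 to 0.20, limma adjusted p = 0.5). In young mice they were -0.10, 0.04 and 0.33, so that only Mto1 was below 0 at both ages. The list median in old mice was -0.21 here, -0.11 with median scaling and -0.01 without scaling.

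The tRNAs that carry the taurinomethyl group are charged by Lars2, Wars2, Kars and Ears2, of which Ears2 serves the tRNAs for glutamate and for glutamine. Their log2 fold changes in old and young mice were -0.06 and -0.09 for Lars2, -0.20 and -0.38 for Wars2, 0.03 and -0.05 for Kars, and -0.34 and -0.40 for Ears2, and this grouping was made after the values were seen. Of the 4, Ears2 passed over both ages.

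Gtpbp3 was the only member that passed between old and young WT, 1 of 37 beside 5.04% of all probes, of which 2.64% were higher in old mice. It read -2.37, -2.78 and -2.10 in young WT, against -1.83, -1.42 and -1.54 in old WT, and the groups did not overlap. The log2 fold change was 0.82 (SE 0.193, 95% interval 0.39 to 1.25, limma adjusted p = 0.0401), a ratio of 1.77. Slide 1 held every young mouse and slide 2 every old one, and the effects of age and of the slide cannot be told apart. The call was lost without young WT replicate 1 or 2, young TauTKO replicate 2 or 3, or any one of the old WT arrays, with an adjusted p up to 0.127, and it was lost with median scaling (0.063) and quantile normalization (0.052). The cytosolic synthetases (median -0.02) and the mitochondrial ones (median -0.08) held 0 genes that passed with age.

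**Figure D5:**
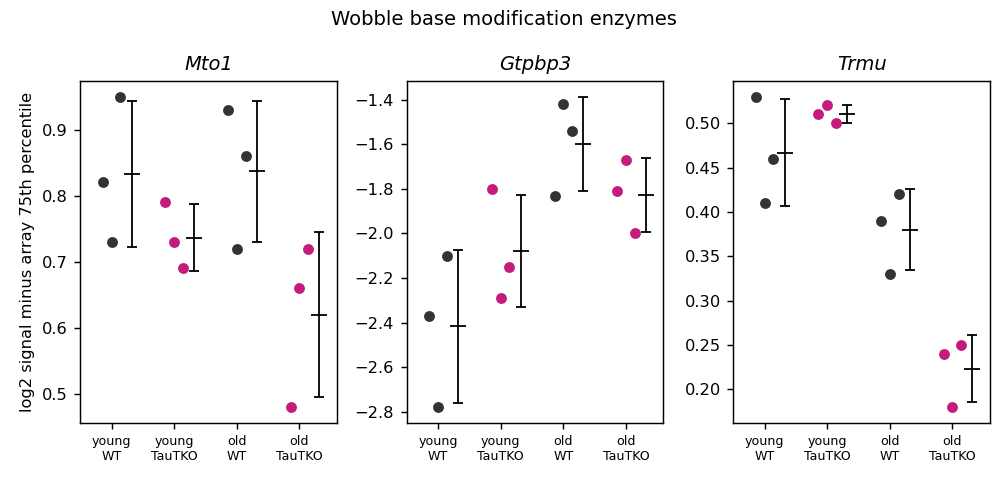
Log2 signal minus the array's 75th percentile (y axis, a separate range per gene) of Mto1, Gtpbp3 and Trmu on the 3 arrays of each group (points), with mean and SD beside them. Trmu lies between 0.18 and 0.25 in old TauTKO and between 0.33 and 0.42 in old WT, and Gtpbp3 lies lowest in young WT, between -2.78 and -2.10.

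The difference between genotypes did not change detectably with age for any member. In the test of the old minus the young difference 0 members passed, beside 0% of all probes, and 0 had an unadjusted limma p under 0.05, beside 5.43% of all probes. The largest was that of Gtpbp3, at -0.57 (95% interval -1.17 to 0.04, limma adjusted p = 0.927).

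Other genes of the same machinery showed small differences, to be read beside the 60.5% of all probes that lay below 0 in old mice and the 60.8% over both ages. In the list of other mitochondrial charging enzymes, 6 of the 8 genes were measured, and all 6 lay below 0 in old mice. Of these 6, 16.7% passed in old mice and 33.3% over both ages, beside 6.1% and 10.9% of all probes. Qrsl1, a subunit of the amidotransferase that turns glutamate into glutamine on the tRNA that Ears2 has charged, read 2.13, 1.90 and 2.01 in old WT and 1.21, 1.55 and 1.59 in old TauTKO without overlap. It passed in old mice (-0.56, limma adjusted p = 0.0175) and over both ages (-0.47, limma adjusted p = 0.00563). Pet112, another subunit of that enzyme, passed over both ages (-0.32, limma adjusted p = 0.0386), and Gatc, the remaining one, did not (-0.08). Among 16 other genes of mitochondrial tRNA processing, 6.25% passed in old mice and 12.5% over both ages, near the 6.1% and 10.9% of all probes. Trub2, a pseudouridine synthase, passed in old mice (-0.46, limma adjusted p = 0.0263) and Hsd17b10, a subunit of mitochondrial RNase P, over both ages (-0.32, limma adjusted p = 0.0293).

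In the cytosol, the wobble uridine is modified by another route. The shares that passed over both ages in the next 3 lists, 16.7%, 11.1% and 15.4%, stood near the 10.9% of all probes. For the wobble uridine, 10 of the 12 genes measured for it lay below 0 over both ages, beside the 60.8% of all probes, and Urm1, the sulfur carrier (-0.31, limma adjusted p = 0.00831), and Ikbkap, of the Elongator complex (-0.21, limma adjusted p = 0.0465), passed. Tufm, the mitochondrial elongation factor that delivers charged tRNA to the ribosome, passed over both ages as 1 of 9 mitochondrial translation factors (-0.27, limma adjusted p = 0.0305). Eef1d (-0.32, limma adjusted p = 0.0243) and Eef2 (-0.22, limma adjusted p = 0.0265) did so among 13 cytosolic elongation and initiation factors. The genes named here that passed only over both ages were chosen after their values were seen. Of 5 genes of taurine synthesis 0 passed, and 1 of them, Gadl1, differed by 0.69 in old mice (limma adjusted p = 0.215).

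Markers of cell types moved with the genotype as well, and in bulk RNA fewer cells of a type and less RNA per cell cannot be told apart. The log2 of the summed signal of 10 fast fibre markers ranged from 12.93 to 13.09 in old WT and from 12.61 to 12.82 in old TauTKO, and 1 of the 10 passed as lower. That of 8 macrophage and leukocyte markers, of which 7 were well above background on all arrays, ranged from 3.24 to 3.59 in old WT and from 4.07 to 4.19 in old TauTKO, and 6 passed as higher. That of 5 fibroblast markers, all well above background, ranged from 6.98 to 7.10 in old WT and from 7.45 to 7.67 in old TauTKO, and 3 passed as higher. Of 7 markers of embryonic or regenerating fibres and satellite cells, 2 passed as higher in old mice, Ncam1 (2.16, limma adjusted p = 0.00123) and Chrna1 (0.49, limma adjusted p = 0.0335). Pax7 passed as lower over both ages (-0.32, limma adjusted p = 0.0267). Of 5 endothelial and 6 fat cell markers, 0 passed between genotypes. In young mice the fast fibre sums were 12.91 to 13.12 in WT and 12.81 to 12.92 in TauTKO, and 0 of the 10 passed, while 1 fibroblast marker passed as higher. The sum of 7 slow fibre markers was between 6.65 and 7.70 in young WT and between 4.73 and 5.49 in young TauTKO, which did not overlap, and between 5.79 and 6.93 in old WT and 3.76 and 7.89 in old TauTKO. Of these 7, Myl3, a myosin light chain, passed as lower in old mice (-4.18, limma adjusted p = 0.049) and over both ages (-3.96, limma adjusted p = 0.00972). Myl3 was the brightest of them in WT (mean 6.97 in young and 6.28 in old mice) and gave the largest part of the WT sums. The others lay above 0 in old mice, at 1.39 (Myh7), 1.37 (Tnnt1), 1.16 (Tnni1), 1.07 (Tnnc1), 0.79 (Myl2) and 2.06 (Atp2a2). For each of these others, old TauTKO replicate 1 was the highest of the old arrays. Myh7 read 4.99, -0.12 and -0.89 in old TauTKO and -0.57, 0.36 and 0 in old WT. Myl2 read 6.11, 2.24 and 0.68 in old TauTKO and 2.03, 2.01 and 2.61 in old WT. The old groups overlapped for Myh7, Tnnt1, Tnnc1 and Myl2 and were apart for Tnni1 and Atp2a2. Of the list, 0 passed as higher, and its median was 1.16 in old and 0.21 in young mice. The part of these shifts in the lower mitochondrial synthetase signals was not tested.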

How the data were processed

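Expression was measured on Agilent arrays in 1 colour in tibialis anterior of 12 mice, 3 per group, grouped by the sample labels. The authors deposited 1 scanner file per array, made with Agilent Feature Extraction 10.10.1.1 per the submitters' processing notes, and the intensity used here is its background-corrected processed signal on a linear scale, not normalized across arrays. A series table of the same intensity values was deposited too, with some columns exchanged between replicates of a group, and served as an alternative. The study's methods name unpaired tests and a fold threshold of 1.8.

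In R 4.3.3, log2 intensity minus the array's 75th percentile was computed, leaving out control spots and 1465 outlier spots and averaging repeated spots. The test covered 38973 of 55681 probes, those whose signal was well above background on each array of 1 group or more. No spot was saturated. Group means were fitted with lmFit and eBayes of limma 3.58.1 to the 12 arrays, with Benjamini-Hochberg adjustment over all probes tested, and the procedure was tested on simulated data. A gene passed at an adjusted p under 0.05 and was called with a fold of at least 1.8 as well. With 3 arrays per group, their number limits the precision.

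Genes named are all 38 members, other probes of a member whose call differs, Slc6a6, and up to 4 genes per pathway list that passed at either age; any others are marked. Members and lists were chosen with earlier results of these data known, and no list is independent evidence. Probe positions follow mm9, as the scanner files do, for which no annotation was used here, and promoters come from a RefSeq table of GRCm38.p6 in which 29 of the 38 members were found. Figures were drawn with Python 3.11.15 and matplotlib 3.10.9. Alternatives were other scalings, background correction by normexp with an offset of 50, other filters, the methods' test, array weights, an intensity trend, blocks, the mean over probes, the series table and each array left out.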

Additional observations from a re-analysis of the deposited data

How the results depend on the processing

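The number of members that passed, 1 in old mice, 0 in young mice, 4 over both ages, 0 for the difference between ages in the effect of genotype and 1 between old and young WT, rested on small differences. Over both ages it was 1 with median scaling, without a filter on dim probes or with the row on the slide as a block (Fars2 each time), 2 without scaling (Mars and Sars, higher), and 0 with a fold of at least 1.8 as well. In old mice it was 0 with median scaling, no scaling, no filter, array weights, only the groups compared in the fit, the row as a block, a fold of at least 1.8 or the methods' test after adjustment. It was 2 with quantile normalization, normexp, an intensity trend, only probes well above background on all 12 arrays or the mean over the probes of a gene. Between old and young WT it was 0 with median scaling, quantile normalization, no scaling, no filter, only the groups compared, a fold of at least 1.8 or the methods' test after adjustment. Without adjustment, the methods' test gave 4 in old mice, 8 in young mice and 9 between old and young WT. With each array left out in turn, the counts lay between 0 and 2 in old mice, between 1 and 5 over both ages and between 0 and 1 between old and young WT. No difference that passed changed sign under any alternative; 52 of 1073 values for old mice, 40 of 1073 for young mice and 53 of 962 over both ages did, none of which had passed. The counts without a filter and with the stricter filter rest on more or fewer probes adjusted over; the cause of the other changes was not tested.

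Replicate numbers are shared between groups. Same-numbered deviations correlated at 0.003, 0.042 and 0.317 in young and at -0.14, 0.056 and -0.049 in old mice. Different-numbered ones correlated between -0.214 and 0.217 in young and between -0.108 and 0.141 in old mice. The numbers were not taken to pair the mice, but with 3 arrays per group these correlations cannot exclude a pairing. With the replicate number as a block the counts were 0 in old mice, 0 between old and young WT and 4 over both ages (Ears2, Fars2, Rars2 and Wars2). The slide as a block could not be fitted for age and changes nothing within an age, and neither the methods' test nor a fit of only the groups compared gives a value over both ages.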
